A study of Gallus gallus with 9 samples.

Results

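The 10 genes described here encode inhibitors that MAP kinase signalling switches on against itself: the dual-specificity phosphatases DUSP1, DUSP4, DUSP5, DUSP6 and DUSP10, the Sprouty proteins SPRY1, SPRY2 and SPRY4, and the Sprouty-related proteins SPRED1 and SPRED2. They were chosen by symbol, and all 10 are among the 15294 genes of the authors' table. RNA was sequenced from DF-1, an immortalised fibroblast line of chicken embryos, labelled wild type, in 9 libraries, with 3 in each of the groups 2D, 3D_E and 3D_L. The series follows this line from attached growth to growth in suspension without carriers. The labels name no added agent and do not spell out what E and L stand for, so the group names are kept as they are. All libraries come from 1 cell line, and nothing in the labels says that those of a group came from separate cultures, so p-values measure the spread between these libraries, which may be technical.

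Growth factors bind receptor tyrosine kinases at the cell surface, which activate RAS, the RAF kinases, MEK and finally the MAP kinase ERK. Stress and cytokines work through parallel chains that end in the MAP kinases p38 and JNK. Active MAP kinases raise transcription of their own inhibitors, so these transcripts are often used as readouts of the pathway. The phosphatases remove phosphate from the kinases themselves, whereas Sproutys and SPREDs sit at the membrane and act above ERK, between the receptor and RAF. In fibroblasts these inhibitors are known for their rapid response to serum and to fibroblast growth factors. The roles given below are known mainly from mammals, and those of the Sproutys also from chick embryos.

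Values are the authors' FPKM, fragments scaled for transcript length and library size, which can be compared between genes. A change is a difference of group means of log2(FPKM + 1), given with its standard error (SE) from a limma fit to all 10436 genes that reached 1 FPKM in at least 3 libraries. A gene is said to have risen or fallen where its p-value, adjusted over all those genes, was under 0.05. The depth of the libraries is unknown. The spread between libraries, as the root mean square over genes of the log2 SD, was 0.12 for 2D, 0.293 for 3D_E and 0.156 for 3D_L. Of 16 fibroblast markers, 14 reached 1 FPKM in every library of 2D and 15 in every library of 3D_E and of 3D_L, while the fibroblast receptor gene PDGFRA stayed at a mean of 0.05 to 0.22 FPKM. Of 15 tested, 6 rose and 3 fell in 3D_E against 2D (40% and 20%, against 36.1% and 32.1% of all tested genes). In 3D_L against 2D, 7 rose and 5 fell (46.7% and 33.3%, against 20.3% and 16.2%). In 3D_L against 3D_E, 1 was higher and 9 lower (6.67% and 60%, against 27.2% and 26.4%). The 9 became 5 without replicate 1 or 2 of 3D_L. Summed epithelial markers lay between 0.32 and 2.15 FPKM and muscle markers between 0.97 and 6.28, with MYOD1 at 0 in every 2D library. The 1 epithelial marker tested, GRHL2, had means of 1.74, 0.15 and 0.86 FPKM in 2D, 3D_E and 3D_L, and reached 1 FPKM only in 2D. The 1 muscle marker tested, MYH1E, had means of 2.48, 1.35 and 5.61 FPKM. MYH1E fell in 3D_E against 2D (limma, adjusted p = 0.00684) and rose in 3D_L against 2D (limma, adjusted p = 0.00131). Summed blood and immune markers lay between 8.51 and 15.2 FPKM. Of this, CD3E alone had a mean of 7.45 in 2D, 6.68 in 3D_E and 6.49 in 3D_L. Of 3 tested, 1 rose and 1 fell in 3D_E against 2D (33.3% each, against 36.1% and 32.1% of all tested genes). These were CSF1R, from a mean of 0.26 to 1.93 FPKM, and CD74, from 2.93 to 1.63. CSF1R reached 1 FPKM only in the 3 libraries of 3D_E. Without any single one of them it no longer met the filter on low values, and 0 immune markers rose. With no filter, 5 immune markers rose, and 8109 of 15284 genes were called in either direction.

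In 2D, 3 of the 5 membrane inhibitors had the highest levels of the 10 genes. SPRED1 stood at 41.5 ± 1.06 FPKM (SD, n = 3, as for all means below), SPRY1 at 36.02 ± 0.776 and SPRY2 at 34.8 ± 3.84. DUSP5 followed at 28.1 ± 3.67, DUSP6 at 24.3 ± 1.19, SPRED2 at 21.9 ± 0.571 and DUSP10 at 19.7 ± 0.322. DUSP4 at 12.2 ± 1.38, DUSP1 at 8.67 ± 1.0 and SPRY4 at 5.26 ± 0.542 were the lowest. Library values of neighbours in this order overlapped for SPRY1 and SPRY2, for SPRY2 and DUSP5, and for DUSP5 and DUSP6, and the other neighbours did not overlap. In 3D_E the order began with DUSP1 and DUSP10, which lay above all other members in every library, and ended with DUSP4 and SPRY4, which overlapped each other. In 3D_L it began with SPRY1 and SPRED1, and SPRY4 stayed lowest. DUSP1 lay above 35.9% of all tested genes in 2D, above 91.6% in 3D_E and above 72.7% in 3D_L.

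DUSP1 and DUSP10 rose in both 3D groups and were highest in 3D_E. DUSP1 (NCBI gene 374192) encodes a nuclear phosphatase made within minutes of a stimulus, which acts on p38, JNK and ERK. Its FPKM values were 9.58, 7.60 and 8.84 in 2D, 99.1, 107 and 134 in 3D_E, and 35.1, 34.0 and 36.6 in 3D_L. The 3 groups did not overlap, with 2D lowest and 3D_E highest. Mean FPKM was 13.1 times as high in 3D_E as in 2D, and its log2 value was higher by 3.56 ± 0.125 (limma, adjusted p = 1.92e-08), the 45th largest change in either direction among the genes tested. In 3D_L it was 4.06 times as high as in 2D, a log2 change of 1.91 ± 0.125 (limma, adjusted p = 3.24e-06), and it was lower in 3D_L than in 3D_E by a log2 change of -1.65 (limma, adjusted p = 5.75e-06). 

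DUSP10 (NCBI gene 421340) encodes a phosphatase that prefers p38 and JNK. It stood at 20.1, 19.7 and 19.4 in 2D, at 89.3, 86.4 and 84.2 in 3D_E, and at 36.04, 37.5 and 39.3 FPKM in 3D_L. As with DUSP1, no library of a group overlapped another group. The log2 change was 2.08 ± 0.0761 in 3D_E against 2D (limma, adjusted p = 2.28e-08), 0.90 in 3D_L against 2D (limma, adjusted p = 1.74e-05) and -1.18 in 3D_L against 3D_E (limma, adjusted p = 2.05e-06). Because these are bulk samples, fewer cells with a transcript and less of it per cell cannot be told apart.

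**Figure D1:**
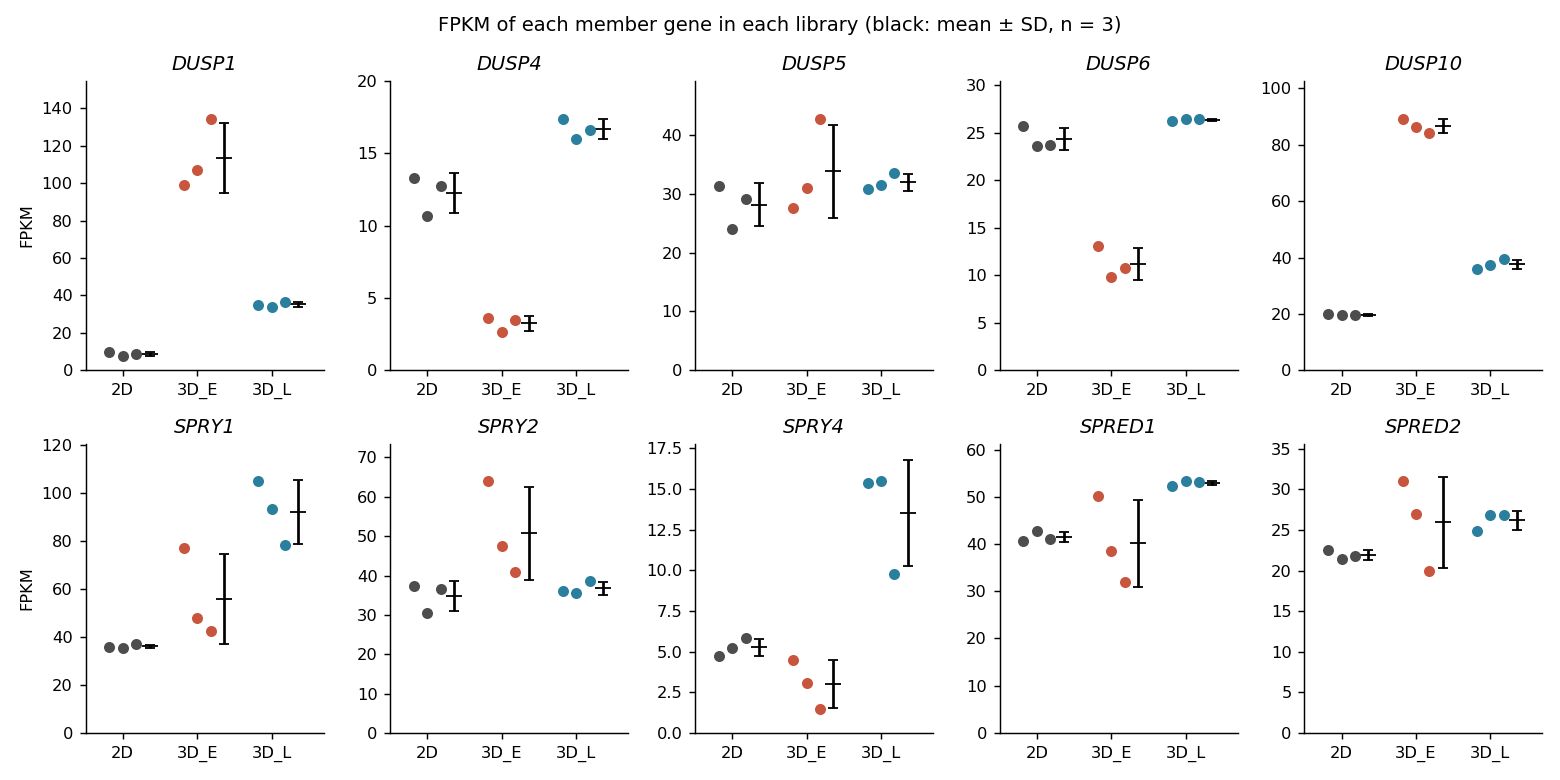
FPKM of each member gene (y axis, from 0, its own range in each panel) in the 3 libraries of 2D (grey), 3D_E (red) and 3D_L (blue), as points in replicate order, with the mean ± SD in black. DUSP1 and DUSP10 are highest in 3D_E, DUSP4 and DUSP6 are lowest there, and SPRY1 and SPRY4 are highest in 3D_L.

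DUSP4 and DUSP6 had the opposite pattern and fell in 3D_E. DUSP6 (NCBI gene 374272) encodes a cytoplasmic phosphatase that is specific for ERK and is a widely used readout of fibroblast growth factor signalling. Its values were 25.7, 23.6 and 23.7 FPKM in 2D, against 13.1, 9.78 and 10.7 in 3D_E and 26.3, 26.5 and 26.4 in 3D_L. Each 3D_E library lay below every library of the other groups. The log2 change was -1.06 ± 0.105 in 3D_E against 2D (limma, adjusted p = 1.39e-05) and 1.17 ± 0.105 in 3D_L against 3D_E (limma, adjusted p = 1.76e-05). DUSP6 in 3D_L differed from 2D by 0.11 ± 0.105, which did not pass the test (limma, adjusted p = 0.437), although the 3 values of 3D_L all lay above those of 2D.

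DUSP4 (NCBI gene 395642) encodes a nuclear phosphatase of ERK and JNK. It stood at 13.3, 10.7 and 12.7 FPKM in 2D, at 3.63, 2.65 and 3.46 in 3D_E, and at 17.4, 16.0 and 16.6 in 3D_L, so the groups did not overlap and 3D_E was lowest. The log2 change was -1.64 ± 0.118 in 3D_E against 2D (limma, adjusted p = 1.47e-06) and 2.06 ± 0.118 in 3D_L against 3D_E (limma, adjusted p = 9.18e-07). DUSP4 also rose by 0.42 in 3D_L against 2D (limma, adjusted p = 0.0195). This smaller call was lost without replicate 2 of 2D (limma, adjusted p = 0.0849), without replicate 1 of 3D_L (limma, adjusted p = 0.0739) and with quantile normalization (limma, adjusted p = 0.0669).

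The summed level of endothelial markers moved with DUSP4 and DUSP6, but the single markers did not all do so. Of 11 listed, 8 were found and 4 tested. In 3D_E against 2D, 1 rose and 2 fell (25% and 50%, against 36.1% and 32.1% of all tested genes). In 3D_L against 2D, 2 rose and 0 fell (50% and 0%, against 20.3% and 16.2%). In 3D_L against 3D_E, 3 were higher and 1 lower (75% and 25%, against 27.2% and 26.4%). One of the 4, CLDN5, had means of 0.857, 0.513 and 1.34 FPKM in 2D, 3D_E and 3D_L, and reached 1 FPKM only in 3D_L. The summed level of the markers was 124 to 136 FPKM in 2D, against 42.6 to 74.4 in 3D_E and 116 to 144 in 3D_L. Most of this sum was ERG, an ETS transcription factor, at 121.7 ± 5.96, 52.8 ± 16.1 and 122 ± 15.4 FPKM. The marker CDH5 had the group order of DUSP4, without overlap, at 6.79 ± 0.113, 1.51 ± 0.393 and 9.83 ± 0.297 FPKM. Its log2 change was -1.65 in 3D_E against 2D (limma, adjusted p = 1.02e-06) and 2.12 in 3D_L against 3D_E (limma, adjusted p = 6.19e-07). The receptor gene FLT1, which was listed with the receptors, stood at 58.1 ± 2.30, 27.3 ± 4.47 and 66.5 ± 5.82. PECAM1, an endothelial adhesion gene, went the other way, at 0.20 ± 0.0755, 1.74 ± 0.620 and 0.75 ± 0.0361 FPKM (log2 change 1.17 in 3D_E, limma, adjusted p = 8.89e-05). Without any single library of 3D_E it no longer met the filter on low values, and 0 endothelial markers rose. The defining endothelial receptor gene KDR was at 0 in every 2D library, and TEK and TIE1 did not exceed a mean of 0.05 FPKM in any group. Their part in the change of the phosphatases was not tested.

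DUSP5 (NCBI gene 423890), the nuclear counterpart that is specific for ERK, passed the test in none of the 3 comparisons. Its values were 31.2, 24.1 and 29.1 FPKM in 2D, against 27.6, 31.02 and 42.8 in 3D_E and 30.8, 31.5 and 33.5 in 3D_L, and all groups overlapped. The log2 differences were 0.24 ± 0.156 in 3D_E against 2D (limma, adjusted p = 0.193), 0.18 in 3D_L against 2D (limma, adjusted p = 0.390) and -0.06 in 3D_L against 3D_E (limma, adjusted p = 0.776). Without replicate 1 of 3D_E the first of these was called, at 0.37 (limma, adjusted p = 0.0340).

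Put together, the 5 phosphatase transcripts summed to 93.1 ± 7.17 FPKM in 2D, against 248 ± 23.7 in 3D_E and 148 ± 3.96 in 3D_L, and their make-up differed between the groups. DUSP1 held 8.88% to 9.59% of this sum in the 2D libraries, 42.6% to 48.8% in 3D_E and 23.4% to 24.1% in 3D_L. DUSP6 held 25.3% to 27.5% in 2D, 3.90% to 5.62% in 3D_E and 17.3% to 18.2% in 3D_L. In 2D, DUSP5 had the largest mean share, 30.1%, followed by DUSP6, 26.2%. In 3D_E, DUSP1 and DUSP10 had mean shares of 45.5% and 35.1%, and DUSP4 had 1.31%. In 3D_L no phosphatase exceeded a mean share of 25.4%, that of DUSP10. The make-up of 3D_L was thus nearer to that of 2D for DUSP4, at 11.3% against 13.1%, than for DUSP1.

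**Figure D2:**
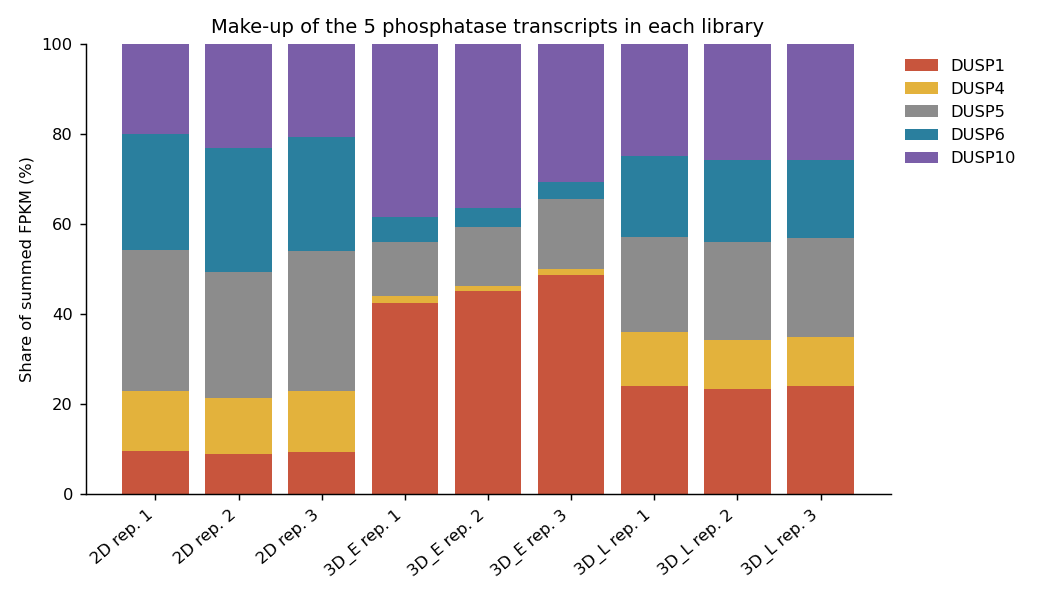
Share of the summed FPKM of the 5 phosphatase genes that each gene held (y axis, percent) in each of the 9 libraries (x axis). DUSP1 and DUSP10 together fill most of each 3D_E bar, while in the 2D bars DUSP5 and DUSP6 have the largest mean shares.

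The 3 Sprouty genes followed 3 different patterns. SPRY1 (NCBI gene 395583), which encodes an inhibitor of fibroblast growth factor and other receptor signals, was highest in 3D_L. It stood at 35.9, 35.3 and 36.9 FPKM in 2D, at 77.0, 48.1 and 42.3 in 3D_E, and at 105, 93.2 and 78.3 in 3D_L. The groups did not overlap, but replicate 1 of 3D_E came close to the lowest 3D_L library. SPRY1 rose in 3D_L against 2D by 1.32 ± 0.197 (limma, adjusted p = 6.65e-04), and 3D_L exceeded 3D_E by 0.75 (limma, adjusted p = 0.0101). Its rise in 3D_E against 2D was 0.57 ± 0.197 (limma, adjusted p = 0.0260) and fell to 0.32 without replicate 1 of 3D_E (limma, adjusted p = 0.0314). That call was lost without replicate 1, 2 or 3 of 2D (limma, adjusted p = 0.0622, 0.0697 and 0.0556), and with FPKM rescaled to the same sum in each library (limma, adjusted p = 0.0510).

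SPRY2 (NCBI gene 395584), studied in chick limb development as a brake on fibroblast growth factor signals, was highest in 3D_E. Its values were 37.4, 30.4 and 36.7 FPKM in 2D, against 63.9, 47.6 and 41.0 in 3D_E and 35.98, 35.5 and 38.7 in 3D_L, with overlap between 2D and 3D_L only. The rise in 3D_E against 2D was 0.51 ± 0.152 (limma, adjusted p = 0.0130). It came to 0.34 without replicate 1 of 3D_E (limma, adjusted p = 0.0167) and was not called without replicate 2 of 2D, at 0.42 (limma, adjusted p = 0.0577). SPRY2 was lower in 3D_L than in 3D_E by a log2 change of -0.43 (limma, adjusted p = 0.0356). This call was the least stable of the SPRY2 calls. It came to -0.26 without replicate 1 of 3D_E (limma, adjusted p = 0.0579) and was also lost without replicate 3 of 2D, replicate 2 of 3D_E or any single library of 3D_L (limma, adjusted p between 0.0517 and 0.0977). It was lost too with each group given its own spread (limma, adjusted p = 0.0630), with only the 2 groups fitted (limma, adjusted p = 0.0667), with no filter on low values (limma, adjusted p = 0.0537) and with FPKM rescaled (limma, adjusted p = 0.101). SPRY2 in 3D_L and 2D differed by 0.08 ± 0.152, which did not pass the test (limma, adjusted p = 0.724).

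SPRY4 (NCBI gene 427643), an inhibitor of growth factor signals to RAS and RAF, was the lowest of the Sproutys in every group. It stood at 4.74, 5.21 and 5.82 FPKM in 2D, at 4.48, 3.08 and 1.5 in 3D_E, and at 15.4, 15.5 and 9.77 in 3D_L. The groups did not overlap, and 3D_L was highest. SPRY4 rose in 3D_L by 1.19 ± 0.264 against 2D (limma, adjusted p = 0.00636) and by 1.90 ± 0.264 against 3D_E (limma, adjusted p = 3.06e-04). Its fall in 3D_E against 2D, -0.71 ± 0.264 (limma, adjusted p = 0.0363), was near the threshold. Without replicate 3 of 3D_E, the lowest library, it was -0.40 (limma, adjusted p = 0.0883). The call was also lost without replicate 1, 2 or 3 of 2D and without replicate 2 of 3D_E (limma, adjusted p between 0.0575 and 0.1). A pseudocount of 5, no filter, rescaled FPKM or a fit of only the 2 groups likewise ended it (limma, adjusted p between 0.0518 and 0.0662).

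Of the 6 comparisons of the SPRED genes, 1 passed the test. SPRED1 and SPRED2 encode membrane proteins that bring the RAS inhibitor neurofibromin to the membrane. SPRED1 (NCBI gene 423292) stood at 40.7, 42.7 and 41.0 FPKM in 2D, at 50.2, 38.4 and 32.0 in 3D_E, and at 52.4, 53.2 and 53.1 in 3D_L. The 3D_L libraries lay above all others, and 3D_E spread to both sides of 2D. SPRED1 was higher in 3D_L than in 3D_E by 0.41 ± 0.138 (limma, adjusted p = 0.0300), and by 0.34 than in 2D, which did not pass the test (limma, adjusted p = 0.0781). The first call was lost without replicate 2 of 3D_E (limma, adjusted p = 0.0883), at 0.26 without replicate 3 of 3D_E (limma, adjusted p = 0.0638), without replicate 1, 2 or 3 of 3D_L (limma, adjusted p between 0.0695 and 0.0782), and with rescaled FPKM, quantile normalization or a fit of only the 2 groups (limma, adjusted p = 0.0512, 0.0805 and 0.0744). The second passed where 3D_E did not set the spread, namely with only 2D and 3D_L fitted (limma, adjusted p = 8.49e-04) or with each group given its own spread (limma, adjusted p = 0.00222), and also without replicate 1 or 3 of 3D_E (limma, adjusted p = 0.00581 and 0.0136).

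SPRED1 in 3D_E and 2D differed by -0.07 (limma, adjusted p = 0.683), and without replicate 1 of 3D_E by -0.24, which was called (limma, adjusted p = 0.0385). SPRED2 (NCBI gene 421271) stood at 22.6, 21.4 and 21.8 FPKM in 2D, at 30.97, 27.0 and 19.9 in 3D_E, and at 24.8, 26.8 and 26.9 in 3D_L. Only 3D_L and 2D did not overlap. No comparison of SPRED2 passed the test, with log2 differences of 0.21 in 3D_E against 2D (limma, adjusted p = 0.199), 0.25 in 3D_L against 2D (limma, adjusted p = 0.199) and 0.03 in 3D_L against 3D_E (limma, adjusted p = 0.852). The second of these was called with only 2D and 3D_L fitted (limma, adjusted p = 0.00986), with own spreads (limma, adjusted p = 0.0186) and without replicate 3 of 3D_E (limma, adjusted p = 0.0289). The first was called, at 0.38, without replicate 3 of 3D_E (limma, adjusted p = 0.00327).

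The Sproutys and SPREDs varied together between the libraries of 3D_E. All 5 were highest in replicate 1 and lowest in replicate 3, an order that 36% of all tested genes had. Replicate 3 minus replicate 1 was -0.85 for SPRY1, -0.63 for SPRY2, -1.13 for SPRY4, -0.63 for SPRED1 and -0.61 for SPRED2 on the log2(FPKM + 1) scale. The signed median over the tested genes was 0.05. It lies near 0 because genes went both ways, with 4345 of 10436 highest in replicate 1 and 5075 in replicate 3. It therefore does not give the usual size of a gap, and whether these gaps were unusually large was not tested. Of the phosphatases, DUSP10 alone had that order, with a gap of -0.08, while DUSP1 and DUSP5 were highest in replicate 3, with gaps of 0.44 and 0.61. For DUSP1 and DUSP10 the differences between groups were far larger than these gaps, whereas for DUSP5, SPRY2, SPRED1 and SPRED2 they were of similar size or smaller. For SPRY1 and SPRY4 the differences between 3D_E and 2D, 0.57 and -0.71, were smaller than the gaps. Between the 3D groups the difference was smaller than the gap for SPRY1, at 0.75, and larger for SPRY4, at 1.90. In 3D_L against 2D it was larger for SPRY1, at 1.32, and of similar size for SPRY4, at 1.19. The 3D_E libraries do not enter a difference between 3D_L and 2D, so for any gene here these gaps do not measure its spread. For SPRY4 the SD of log2(FPKM + 1) was 0.125 in 2D and 0.352 in 3D_L, and every 3D_L value lay above those of 2D.

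**Figure D3:**
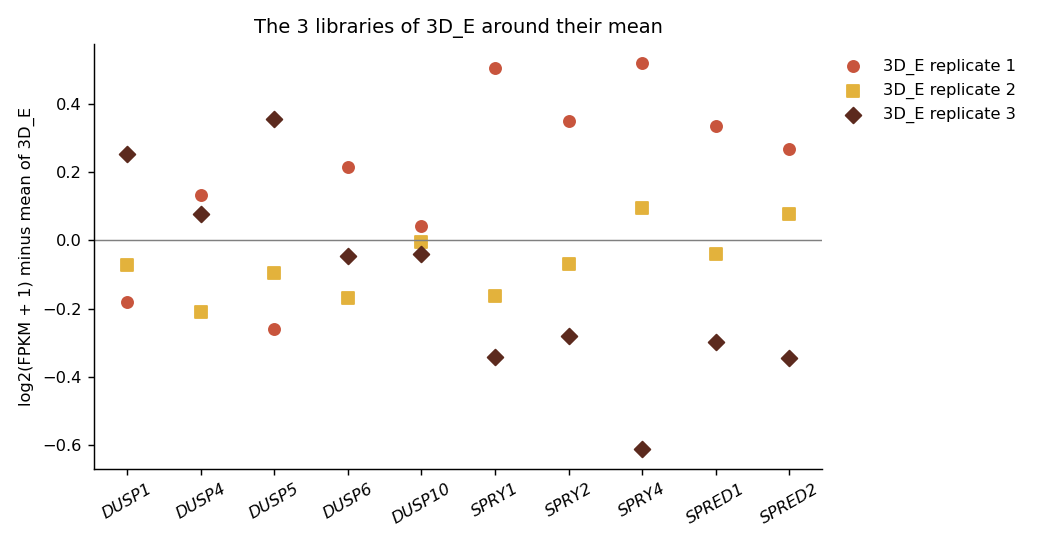
The 3 libraries of 3D_E, each as its log2(FPKM + 1) minus the mean of the 3 (y axis), for each member gene (x axis). Replicate 1 is the highest and replicate 3 the lowest for each of the 5 Sprouty and SPRED genes, and DUSP1 and DUSP5 have the opposite order.

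In 3D_E against 2D, 7 of the 10 genes passed the test, a share close to the 68.2% of all tested genes that did. DUSP1, DUSP10, SPRY1 and SPRY2 rose, 4 of 10 against 36.1% of all genes, and DUSP4, DUSP6 and SPRY4 fell, 3 of 10 against 32.1%. The count was 4 without replicate 2 of 2D, with 2 higher and 2 lower. In 3D_L against 2D, 5 of 10 passed, and 36.4% of all genes did. All 5 rose, namely DUSP1, DUSP4, DUSP10, SPRY1 and SPRY4, against 20.3% of all genes, and 0 fell, against 16.2%. The count of 0 held in each of the 18 alternative settings. All 10 log2 differences were above 0, but 5 were not called, and the median of all tested genes was also above 0, at 0.03. The smallest, that of SPRY2, was 0.08 and reached -0.0139 with a library left out. In 3D_L against 3D_E, 8 of 10 passed, against 53.6% of all genes. Of these, DUSP4, DUSP6, SPRY1, SPRY4 and SPRED1 were higher in 3D_L, against 27.2% of all genes, and DUSP1, DUSP10 and SPRY2 were lower, against 26.4%. The median log2 difference of the 10 genes was 0.23, 0.38 and 0.22 in the order of these comparisons, and that of all tested genes was 0.05, 0.03 and -0.005. Comparisons share their groups, so these counts are not independent of each other.

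**Figure D4:**
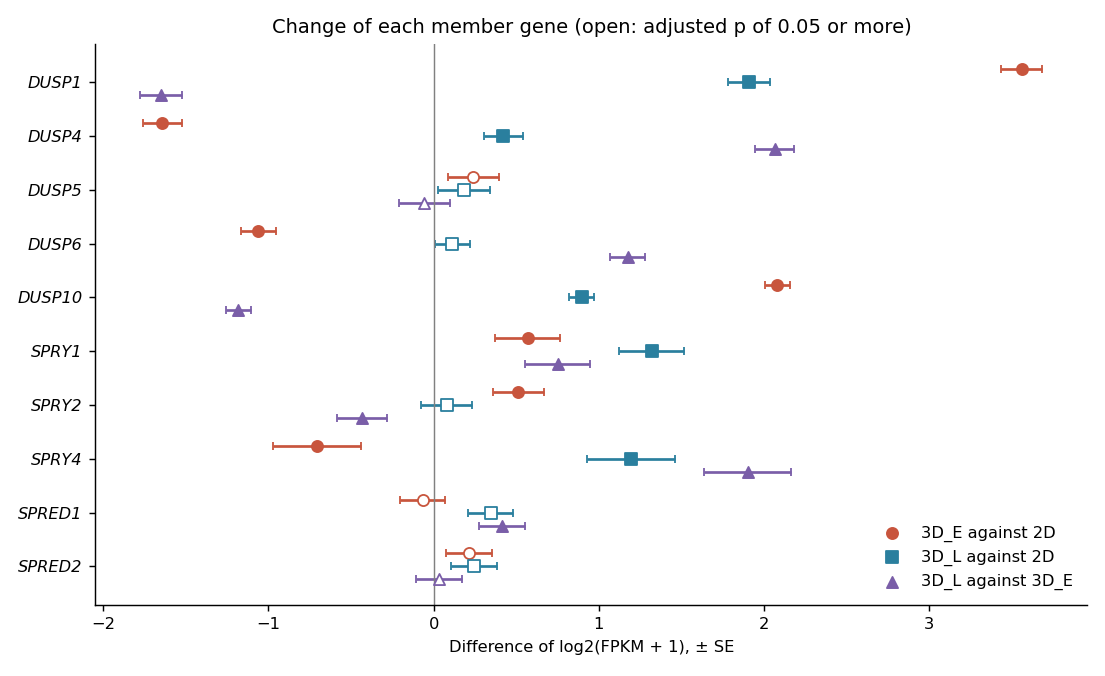
Difference of log2(FPKM + 1) ± SE (x axis) of each member gene (y axis) in 3D_E against 2D (circles), 3D_L against 2D (squares) and 3D_L against 3D_E (triangles); open symbols have an adjusted p of 0.05 or more in limma. DUSP1 and DUSP10 lie to the right in both comparisons with 2D, and DUSP4, DUSP6 and SPRY4 lie to the left in 3D_E against 2D.

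Across the 9 libraries, the most alike profiles among the 10 genes were those of DUSP1 with DUSP10 and of DUSP4 with DUSP6. DUSP1 and DUSP10 had a Pearson r of 0.987 on the log2(FPKM + 1) scale, and DUSP4 and DUSP6 one of 0.986, while DUSP6 and DUSP10 had one of -0.843. Of the Sproutys, SPRY4 was most like SPRED1 (r = 0.887), SPRY1 also most like SPRED1 (r = 0.801), and SPRY2 most like DUSP10 (r = 0.775). DUSP5 and SPRED2 had no close counterpart among the 10, with a highest r of 0.562 and 0.697. These correlations describe 9 libraries in 3 groups and mostly restate the group means. Among 8318 other genes with a mean of at least 5 FPKM, the profile nearest to DUSP1 was that of CBFA2T3 (r = 0.998), at 0.377 ± 0.1002 FPKM in 2D, against 16.5 ± 3.15 in 3D_E and 4.90 ± 0.203 in 3D_L. That nearest to DUSP10 was TFAP2C (r = 0.999), a transcription factor gene, at 19.2 ± 1.04, 149.9 ± 6.50 and 45.8 ± 3.08 FPKM. TNFRSF1B, a receptor for tumour necrosis factor, was nearest to DUSP4 (r = 0.993), and SAPCD2 to DUSP6 (r = 0.997). For SPRY1, SPRY2 and SPRY4 they were SLC25A38, ERP29 and UBQLN4 (r between 0.983 and 0.990), for SPRED1 and SPRED2 MMD and FAM210A (r = 0.993 each), and for DUSP5 ABCD4 (r = 0.956).

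The other MAP kinase phosphatases that were found rose in both 3D groups, 3 of 3 against 36.1% of all genes in 3D_E and 20.3% in 3D_L. DUSP7, a cytoplasmic phosphatase of ERK from the same subfamily as DUSP6, stood at 7.73, 7.46 and 7.54 FPKM in 2D, at 62.5, 49.9 and 32.2 in 3D_E, and at 39.7, 39.6 and 36.9 in 3D_L. Both 3D groups lay above 2D and overlapped each other. The log2 change of DUSP7 was 2.47 in 3D_E (limma, adjusted p = 2.44e-06) and 2.21 in 3D_L (limma, adjusted p = 2.02e-05). DUSP6 and DUSP7 thus moved in opposite directions in 3D_E. DUSP8, which prefers JNK and p38, rose from 17.5 ± 0.967 to 61.6 ± 2.04 in 3D_E (limma, adjusted p = 2.62e-07) and to 27.0 ± 2.96 in 3D_L (limma, adjusted p = 0.00120). DUSP16, another phosphatase of JNK and p38, rose from 2.49 ± 0.143 to 5.54 ± 0.128 and to 5.98 ± 1.153 FPKM (limma, adjusted p = 1.16e-04 and 2.26e-04). DUSP8 was lower in 3D_L than in 3D_E by a log2 change of -1.16 (limma, adjusted p = 1.09e-05), and DUSP7 and DUSP16 did not pass that test (limma, adjusted p = 0.273 and 0.597); without replicate 3 of 3D_E, 2 of these 3 genes were lower. DUSP2 and DUSP9 were not analysed here.

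Among 13 other tested inhibitors of receptor and RAS signalling, 8 rose and 3 fell in 3D_E against 2D, 4 rose and 3 fell in 3D_L against 2D, and 3 were higher and 7 lower in 3D_L than in 3D_E. That is 61.5% and 23.1% in 3D_E against 36.1% and 32.1% of all tested genes, 30.8% and 23.1% in 3D_L against 20.3% and 16.2%, and 23.1% and 53.8% between the 3D groups against 27.2% and 26.4%. TRIB1, a pseudokinase that binds MEK, rose from 0.997 ± 0.120 FPKM in 2D to 9.41 ± 0.410 in 3D_E and 5.76 ± 0.561 in 3D_L. RASAL2 and RASA3, which switch RAS proteins off, stood at 7.86 ± 0.273 and 8.997 ± 0.779 in 2D and rose to 35.6 ± 4.99 and 32.3 ± 7.86 in 3D_E. CBLB, a ubiquitin ligase for activated receptors, rose from 3.30 ± 0.170 to 15.4 ± 2.40 in 3D_E. LRIG3, a membrane protein that modulates receptor signalling, had the largest change of the list in 3D_L against 2D, from 0.32 ± 0.132 to 7.09 ± 0.335, or 2.62 on the log2 scale (limma, adjusted p = 7.68e-08). PEBP1, an inhibitor of the step from RAF kinases to MEK, fell in 3D_E from 198.7 ± 5.003 to 60.9 ± 15.6 FPKM (limma, adjusted p = 7.03e-06). ERRFI1, an inhibitor of epidermal growth factor receptors, fell from 20.8 ± 0.397 in 2D to 8.56 ± 2.18 in 3D_E (limma, adjusted p = 4.63e-05). It also fell in 3D_L against 2D, to 15.1 ± 0.859 (limma, adjusted p = 0.0375), and was higher there than in 3D_E (limma, adjusted p = 0.00163). NF1, which encodes the neurofibromin that SPREDs recruit, rose from 13.3 ± 0.740 to 21.2 ± 2.96 in 3D_E (limma, adjusted p = 8.33e-04).

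Of 12 tested ligands of receptor tyrosine kinases, 8 rose and 2 fell in 3D_E against 2D, and also in 3D_L against 2D. These shares of 66.7% and 16.7% stand beside 36.1% and 32.1% of all tested genes in 3D_E, and beside 20.3% and 16.2% in 3D_L. FGF2, basic fibroblast growth factor, fell in both, with 17.5, 24.6 and 22.0 FPKM in 2D, against 5.15, 6.60 and 3.31 in 3D_E and 6.53, 6.58 and 6.28 in 3D_L. The log2 changes of FGF2 were -1.92 (limma, adjusted p = 1.51e-05) and -1.57 (limma, adjusted p = 2.10e-04), and no 3D library reached the lowest 2D value. IGF2, an insulin-like growth factor, rose from 3.49 ± 0.282 to 17.1 ± 1.26 in 3D_E and 8.67 ± 0.294 in 3D_L. CSF1 rose from 12.8 ± 2.10 to 32.2 ± 0.630 in 3D_E. The platelet-derived growth factor genes PDGFA and PDGFD rose in 3D_L, from 20.5 ± 0.907 to 44.2 ± 0.604 and from 75.6 ± 2.50 to 258.6 ± 17.0 FPKM. The other ligand that fell was VEGFC, from 12.1 ± 0.780 to 4.82 ± 0.731 in 3D_E and 8.88 ± 1.42 in 3D_L. Only 1 ligand fell in 3D_L against 2D without any single library of 2D, or without replicate 1 or 2 of 3D_L. In 3D_L against 3D_E, 4 ligands were higher and 3 lower, 33.3% and 25% of them against 27.2% and 26.4% of all genes.

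Of 13 tested receptors, 5 rose and 5 fell in 3D_E against 2D, and 5 rose and 4 fell in 3D_L against 2D. In 3D_E the 38.5% in each direction were near the 36.1% and 32.1% of all tested genes, and in 3D_L the shares were 38.5% and 30.8% against 20.3% and 16.2%. FGFR1, the main fibroblast growth factor receptor here by level, stood at 127.9 ± 10.6, 113.9 ± 21.5 and 130.7 ± 16.6 FPKM in 2D, 3D_E and 3D_L and passed no test (limma, adjusted p between 0.260 and 0.906). MET, the receptor for hepatocyte growth factor, fell from 22.0 ± 1.26 to 5.84 ± 1.08 and 7.86 ± 0.244. PDGFRB, a platelet-derived growth factor receptor, rose from 26.003 ± 2.18 to 73.1 ± 6.24 and 55.98 ± 6.21. The number of receptors that rose in 3D_L against 2D was 3 without replicate 1 or 2 of 3D_L. The number that fell was 1 without replicate 3 of 2D, and 2 without replicate 1 of 2D or replicate 2 or 3 of 3D_L. KIT, among those that rose, reached 1 FPKM only in 3D_L, and ERBB4, among those that fell, only in 2D. Each no longer met the filter on low values without any single library of that group. In 3D_L against 3D_E, 5 were higher and 4 lower (27.2% and 26.4% of all genes), with FLT1 at the head (log2 change 1.26, limma, adjusted p = 2.77e-05); the 5 became 3 without replicate 2 of 3D_E and 2 without replicate 1 or 2 of 3D_L.

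In the relay from RAS to ERK, 5 of 21 tested genes rose and 8 fell in 3D_E against 2D, and 8 rose without replicate 1 of 3D_E. The shares were 23.8% and 38.1%, against 36.1% and 32.1% of all tested genes. MAP2K1 and MAP2K2, which encode the 2 MEK kinases, fell from 193 ± 6.84 to 131.9 ± 43.7 FPKM (limma, adjusted p = 0.0205) and from 66.2 ± 0.916 to 42.2 ± 8.23 (limma, adjusted p = 0.00108). MAPK3, which encodes ERK1, was not analysed here. GRB2, the adaptor that links receptors to RAS, fell from 146 ± 9.78 to 73.3 ± 27.4. MRAS, a RAS-related protein that works with SHOC2 on RAF, rose from 24.3 ± 0.555 to 110.9 ± 17.5 in 3D_E and 85.5 ± 2.15 in 3D_L, and the related RRAS2 fell from 95.4 ± 6.95 to 28.7 ± 7.50 and 59.5 ± 8.25. In 3D_L against 2D, 3 genes of this relay rose and 2 fell of 21, 14.3% and 9.52% against 20.3% and 16.2% of all genes. Those that rose numbered 5 without replicate 1 and 6 without replicate 3 of 3D_E, and 9 with own spreads, and those that fell 1 without replicate 2 of 2D or replicate 1 of 3D_L. In 3D_L against 3D_E, 7 were higher and 2 lower, 33.3% and 9.52% against 27.2% and 26.4% of all genes. The lower count was 1 without replicate 2 of 3D_E or without replicate 1 or 2 of 3D_L, and 4 without replicate 3 of 3D_E.

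In the p38 and JNK relay, 15 of 26 tested genes rose and 3 fell in 3D_E against 2D, 57.7% and 11.5% of them against 36.1% and 32.1% of all tested genes. The median log2 difference was 0.40, and that of all genes was 0.05. MAPK10, counted among the 15, reached 1 FPKM only in 3D_E and so met the filter on low values through that group alone. MAPK14, which encodes p38 alpha, rose from 46.7 ± 1.03 to 61.0 ± 6.36 in 3D_E (limma, adjusted p = 0.00499) and 58.6 ± 2.29 in 3D_L (limma, adjusted p = 0.0219). MAPK8, which encodes JNK1, rose from 9.71 ± 0.553 to 16.7 ± 1.70 in 3D_E (limma, adjusted p = 1.15e-04) and stood at 9.22 ± 0.470 in 3D_L (limma, adjusted p = 0.621). MAP2K3, a kinase that activates p38, rose from 38.1 ± 1.72 to 65.96 ± 6.26 and 50.97 ± 3.35. MAP2K6, of the same relay, fell from 5.26 ± 0.225 to 3.46 ± 0.342 and 3.54 ± 0.204 FPKM (limma, adjusted p = 9.48e-04 and 0.00354). MAP3K7 and ATF2 also fell in 3D_E (limma, adjusted p = 0.0102 and 0.0127). GADD45B, a stress protein that activates the p38 and JNK chain, stood at 27.9, 25.5 and 25.4 FPKM in 2D, against 55.8, 69.7 and 90.9 in 3D_E and 18.6, 17.7 and 22.0 in 3D_L. It rose in 3D_E by 1.40 (limma, adjusted p = 3.80e-05) and was lower in 3D_L than in 3D_E by a log2 change of -1.82 (limma, adjusted p = 1.60e-05). MAPK8IP3, a JNK scaffold, rose from 7.80 ± 1.73 to 40.9 ± 15.5 and 15.8 ± 1.69. In 3D_L against 2D, 6 genes rose and 1 fell, 23.1% and 3.85% against 20.3% and 16.2% of all genes, but 1 rose without replicate 2 of 2D and 3 without replicate 1 or 2 of 3D_L, and 2 fell without replicate 1 or 3 of 3D_E. In 3D_L against 3D_E, 3 were higher and 11 lower, 11.5% and 42.3% against 27.2% and 26.4% of all genes, and 1 was higher without replicate 2 of 3D_E or replicate 1 or 2 of 3D_L.

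Of 16 tested genes that ERK signalling is known to raise, 8 rose and 5 fell in 3D_E against 2D, 8 rose and 3 fell in 3D_L against 2D, and 5 were higher and 3 lower in 3D_L than in 3D_E, with 1 lower without replicate 2 of 3D_L. In 3D_E 50% rose and 31.2% fell, against 36.1% and 32.1% of all tested genes. In 3D_L 50% rose and 18.8% fell, against 20.3% and 16.2%, and between the 3D groups the shares were 31.2% and 18.8% against 27.2% and 26.4%. FOS, an immediate early transcription factor, stood at 7.34, 4.92 and 5.24 FPKM in 2D, against 28.5, 35.8 and 48.4 in 3D_E and 14.8, 15.9 and 18.8 in 3D_L. The order of the groups was that of DUSP1, with no overlap, and the log2 changes of FOS against 2D were 2.48 (limma, adjusted p = 2.72e-06) and 1.37 (limma, adjusted p = 5.20e-04). FOSL2, a relative of FOS, had the group order of DUSP6, at 129 ± 4.74, 61.4 ± 7.14 and 132 ± 10.8. HMGA1, a chromatin protein, fell from 79.95 ± 5.85 to 38.5 ± 6.03 in 3D_E. The survival gene MCL1 rose from 38.6 ± 1.67 to 87.6 ± 7.36 and 89.2 ± 1.79, and the cytokine gene LIF rose in 3D_L from 31.6 ± 4.89 to 65.7 ± 2.56. ETV4 and ETV5, the ETS factors most closely tied to fibroblast growth factor signals, rose in both 3D groups. ETV4 stood at 17.8 ± 0.770, 22.9 ± 2.50 and 34.7 ± 1.60, and ETV5 at 9.27 ± 0.438, 12.96 ± 1.502 and 14.6 ± 2.25 FPKM in 2D, 3D_E and 3D_L. ETV1, another ETS factor of the list, stood higher than both, at 65.3 ± 3.39, 64.9 ± 11.6 and 94.5 ± 5.79. It did not pass the test in 3D_E against 2D (limma, adjusted p = 0.880) and rose in 3D_L (limma, adjusted p = 0.00883). EGR1, another immediate early factor, fell from 101.7 ± 6.52 to 73.8 ± 21.0 (limma, adjusted p = 0.0212) and 65.5 ± 0.191 (limma, adjusted p = 0.0137).

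**Figure D5:**
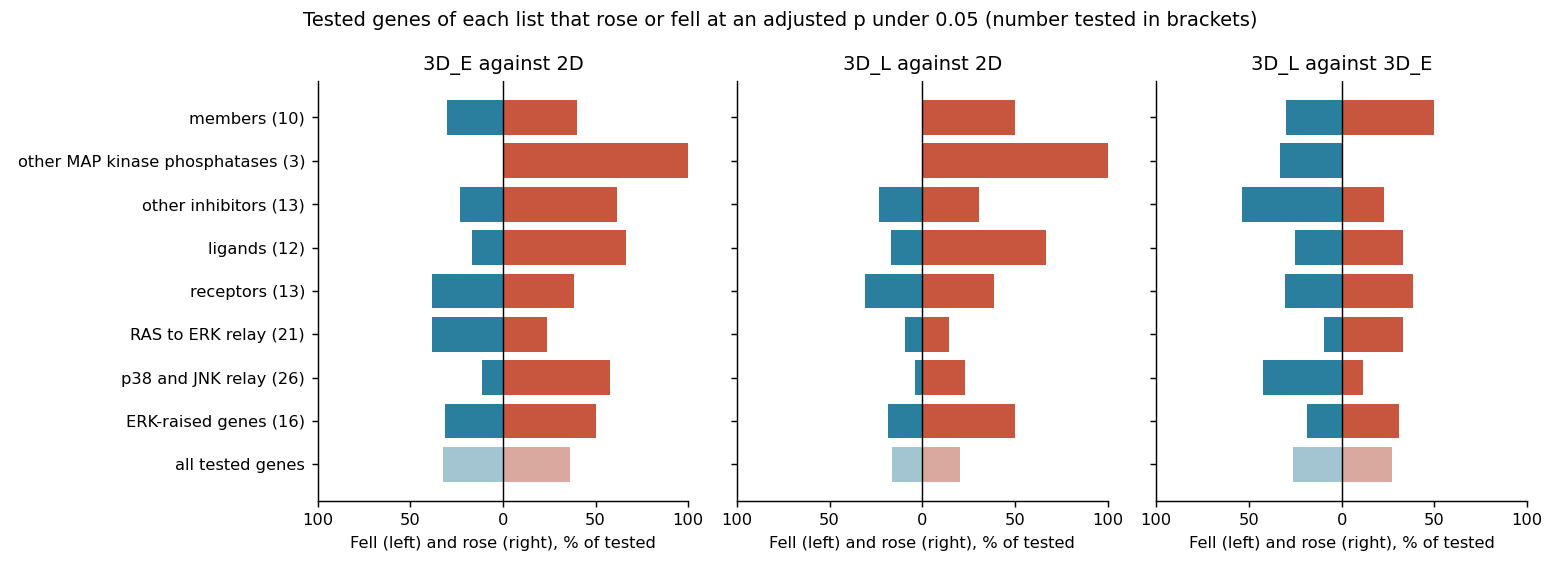
Share of the tested genes of each list (y axis, number tested in brackets) that rose (right, red) or fell (left, blue) at an adjusted p under 0.05 in limma (x axis, percent), in each of the 3 comparisons, with all tested genes in pale bars. In 3D_E against 2D, 57.7% of the p38 and JNK relay rose and 11.5% fell, and all 3 other MAP kinase phosphatases rose in both comparisons with 2D.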

How the data were processed

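Libraries were made from polyadenylated RNA after a trizol extraction, per the labels' protocols. The values used are FPKM for each gene in each library, as the authors deposited them. The submitters' processing notes name HISAT2 2.0.5, DESeq2, R 3.4.2 and the genome build GRCg6a, with no role for any of them. How reads of related genes or of antisense transcripts were assigned is not given in the sources used here, so close relatives such as the Sproutys are less certain. Of 94 columns, 82 carry no name and were not used, and 1 line that names no gene was left out. The low values gave no whole-read steps, since gene lengths are not in the table, so the depth is unknown and counting error cannot be given.

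A linear model of log2(FPKM + 1) per gene, over the 9 libraries, was fitted with limma 3.58.1 (R 4.3.3; eBayes with trend, 6 residual degrees of freedom, 2-sided) with Benjamini-Hochberg adjustment over 10436 genes per comparison. The procedure was run on simulated data in which all groups had the same spread per gene and few genes changed. That run therefore did not cover the unequal spreads of the groups or the large share of genes called here. Figures were drawn with matplotlib 3.10.9. The members and the 13 lists of pathway genes and markers were chosen with earlier results of these data known. Named list genes were up to 4 per list and comparison with the largest called change and at least 5 FPKM in the higher group, with the other MAP kinase phosphatases, MAP2K1, MAP2K2, MAPK14 and MAPK8; some genes that this rule names are not reported here. NF1, FGFR1, KIT, ERBB4, MAP3K7, ATF2, MAPK10, ETV1, ETV4, ETV5 and EGR1 were chosen after their values were seen. So were the markers PDGFRA, GRHL2, MYOD1, MYH1E, CD3E, CSF1R, CD74, ERG, CDH5, PECAM1, CLDN5, KDR, TEK and TIE1. Alternatives were the pseudocount (0.1 and 5), the filter (none, and 5 FPKM), the scaling (rescaled sums, quantile normalization), the groups in the fit, own spreads per group (arrayWeights), the replicate number as a block, and each library left out.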

Additional observations from a re-analysis of the deposited data

Results flagged for a closer look

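DUSP4 and SPRY4 changed in opposite directions against 2D in the 3D groups, falling in 3D_E and rising in 3D_L, and the difference between these changes passed its own test. Since both changes use the same 2D libraries, that difference equals the comparison of 3D_L with 3D_E. It was 2.06 on the log2 scale for DUSP4 (limma, adjusted p = 9.18e-07) and 1.90 for SPRY4 (limma, adjusted p = 3.06e-04). All 3 libraries of 3D_E lay below, and all 3 of 3D_L above, the 3 libraries of 2D for both genes. The call of the SPRY4 fall in 3D_E was lost without any single library of 2D, or without replicate 2 or 3 of 3D_E (limma, adjusted p between 0.0575 and 0.1). The DUSP4 rise in 3D_L against 2D was smaller, at 0.42 (limma, adjusted p = 0.0195). Its call was lost without replicate 2 of 2D, without replicate 1 of 3D_L and with quantile normalization (limma, adjusted p between 0.0669 and 0.0849).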

How the results depend on the processing

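Of 540 values of single members under the 18 alternatives, 490 kept their direction and their side of the threshold, 35 were no longer called, 10 were newly called and 5 changed sign, none of them called. The changes of DUSP1 and DUSP10 in the 3 comparisons, and of DUSP4 and DUSP6 in both comparisons with 3D_E, were called in all 18. So were those of SPRY1 and SPRY4 in 3D_L against 2D and in 3D_L against 3D_E. With each library left out in turn, 4 to 9 members were called in 3D_E against 2D, 2 to 5 of them higher. SPRED1 in 3D_E against 2D became 0.0370 with quantile normalization and ranged from -0.235 to 0.0815 with libraries left out. SPRY2 in 3D_L against 2D ranged from -0.0139 to 0.131 in the same way, and DUSP5 and SPRED2 in 3D_L against 3D_E from -0.186 to 0.121 and from -0.139 to 0.167. The cause was not tested. With the replicate block, 7, 5 and 8 members were called in the 3 comparisons, as without it, and no member's call changed. Same-numbered libraries of different groups had deviations from their group means that correlated at between -0.404 and 0.182, so no clear pairing by number was seen. With only 3 libraries in a group, these correlations cannot tell whether equal numbers mark a shared culture or batch. The fit shares 1 spread among groups although 3D_E varied more; with own spreads, 7, 7 and 7 members were called. Over all genes, 3D_L against 2D gave 3803 calls in the shared fit, 5839 with own spreads and 5783 with only those groups. Some list counts also moved by over 1.5 times. With a filter of 5 FPKM, 6 and not 11 genes of the p38 and JNK relay were lower in 3D_L than in 3D_E, and 3 and not 5 receptors fell in 3D_E against 2D. With quantile normalization, 4 and not 2 ligands fell in 3D_E against 2D. With own spreads, 5 and not 3 ERK output genes fell in 3D_L against 2D.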

Other observations

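Atypical dual-specificity phosphatases lack the kinase-binding part of the MAP kinase phosphatases. Of 7 tested, 1 rose and 2 fell in 3D_E against 2D, 0 rose and 1 fell in 3D_L against 2D, and 1 was higher and 0 were lower in 3D_L than in 3D_E. The shares in 3D_E were 14.3% and 28.6% against 36.1% and 32.1% of all tested genes, in 3D_L 0% and 14.3% against 20.3% and 16.2%, and between the 3D groups 14.3% and 0% against 27.2% and 26.4%. DUSP22, which acts in JNK signalling, stood at 18.96 ± 0.784 FPKM in 2D, against 8.72 ± 4.04 in 3D_E and 16.4 ± 1.16 in 3D_L, with a log2 change of -1.12 in 3D_E against 2D (limma, adjusted p = 0.00247). DUSP14 stood at 43.2 ± 0.497, 56.4 ± 12.6 and 56.6 ± 2.24 FPKM. Its rise in 3D_E was 0.35 (limma, adjusted p = 0.0459) and was not called without any single library of 2D or 3D_L, or without replicate 2 of 3D_E.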
